A study of Mus musculus with 7 samples.

Results

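The genes described here are 6 protein-coding genes of the Ly6 cluster on mouse chromosome 15 and its edges: Ly6a, Ly6c1, Ly6c2, Ly6e, Gpihbp1 and Them6. They are 6 of the 17404 genes in the deposited expression table, and all 6 passed the filter on low values that left 12715 genes (a mean of at least 0.5 over the libraries). The genes were picked by their position and by the strain difference in the same values that are described below. Their differences between strains are therefore given as a description, with no p-value per gene. How many of them passed the test run over all genes is given below, and nothing is read from it. Them6 is not a Ly6 family gene and marks one end of the span.

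RNA-Seq was performed on ventricular tissue of neonatal mice at postnatal day 4, with 3 libraries of BALB/cByJ and 4 libraries of BALB/cJ. These are closely related inbred substrains, and the study compared gene expression between them in the neonatal heart, where the strains differ in cardiomyocyte ploidy. Each library came from a pool of 3 to 4 hearts by the study's methods, while its results section gives a slightly higher number. The labels give neither sex nor any treatment. BALB/cByJ carries a natural deletion that removes Cyth1 expression, and BALB/cJ carries a retroviral insertion in Zhx2, so each strain has a null or near-null allele that the other lacks.

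The Ly6 family, also called the Ly6/uPAR family, is a set of small cysteine-rich proteins, most of them held on the outer cell surface by a glycosylphosphatidylinositol (GPI) lipid anchor. Many of the mouse genes stand side by side on chromosome 15 and arose as copies of each other, and several are known to be induced by interferon in mouse blood cells. In the mouse, LY6A (also named SCA-1) and LY6C1 are found on vascular endothelium as well as on blood cells, and GPIHBP1 is the capillary protein that carries lipoprotein lipase to the lumen, where the enzyme releases fatty acids that the heart takes up.

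In RefSeq coordinates of GRCm38.p6, the same mouse assembly as the mm10 that the submitters name, Them6 (gene ID 223626) lies at 74721234 to 74724373 of chromosome 15. Ly6e (17069) lies at 74955025 to 74959904, Ly6a (110454) at 74994877 to 74998031, and Ly6c1 (17067) at 75044018 to 75048920. Ly6c2 (100041546) lies at 75108161 to 75112066 and Gpihbp1 (68453) at 75596630 to 75598213. The 6 genes span 877 kb, and Ly6a, Ly6c1 and Ly6c2 lie within 117 kb of it.

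The upstream sequences of the neighboring copies Ly6c1 and Ly6c2 are shown. Ly6c1 had the highest level among Ly6a, Ly6c1, Ly6c2 and Ly6e, and Ly6c2 the largest relative strain difference of the 6 genes. Of the 6 genes, 2 had an entry in the RefSeq promoter table (GRCm38.p6). Each stretch holds the 250 bases before the first start listed there, on the minus strand, and capitals mark matches to the motifs listed afterwards. Ly6c1 is chr15:75048838-75049087 and Ly6c2 is chr15:75111972-75112221. The gene spans given above reach to 75048920 for Ly6c1 and 75112066 for Ly6c2, so each stretch runs partly into its gene. Distances below are from the listed starts, not from the outer ends of the genes.
Ly6c1: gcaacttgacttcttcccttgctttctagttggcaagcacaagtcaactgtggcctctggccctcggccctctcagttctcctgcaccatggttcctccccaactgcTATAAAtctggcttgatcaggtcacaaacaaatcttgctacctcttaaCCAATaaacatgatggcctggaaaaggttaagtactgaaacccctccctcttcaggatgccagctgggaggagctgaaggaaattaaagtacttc
Ly6c2: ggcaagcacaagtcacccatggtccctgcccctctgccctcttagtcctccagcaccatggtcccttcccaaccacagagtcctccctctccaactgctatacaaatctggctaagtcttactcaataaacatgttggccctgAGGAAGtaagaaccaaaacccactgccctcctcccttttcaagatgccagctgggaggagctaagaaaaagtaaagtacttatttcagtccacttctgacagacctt

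The 2 stretches aligned over 215 bases, of which 164 (76.3%) were identical, so they are recognizable copies but not the same sequence. The 250 bases before the second listed starts (chr15:75048664-75048913 for Ly6c1 and chr15:75111938-75112187 for Ly6c2) aligned over 122 bases, with 105 (86.1%) identical. This Ly6c1 window lies wholly inside the gene span, and this Ly6c2 window lies partly inside it. Both strands were searched for a set of short motifs. The core promoter motifs were the TATA box, with the letters TATAAA, and the CCAAT box, named after its letters. AGGAAG is a core bound by ETS factors, many of which act in endothelium. For interferon signaling, the motifs were the core of the interferon-stimulated response element (GAAA repeated after a gap of any 2 bases) and the STAT site TTCNNNGAA. The first Ly6c1 stretch holds TATAAA starting 143 bases and CCAAT starting 95 bases before the start, whereas the first Ly6c2 stretch holds neither and has AGGAAG 107 bases before its start. Before the second starts, AGGAAG stands 126, 38 and 34 bases upstream in Ly6c1, where the last pair overlaps, and 141 and 7 bases upstream in Ly6c2. The Ly6c2 windows overlap, and the site 141 bases before the second start is the one 107 bases before the first. In the alignment of the second windows, the Ly6c1 site at 126 bases stands opposite the Ly6c2 site at 7 bases. These letters are common: over the 32851 promoters of the table, read over the same length, 29.5% hold AGGAAG, 33.8% CCAAT and 12.4% TATAAA. The interferon-stimulated response element core (2.98% of promoters) and TTCNNNGAA (7.02%) were not found in these 4 windows, which says only that those letters are not in them.

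The deposited values are normalized for sequencing depth and, from their form, for gene length (FPKM or TPM, not stated which), and are called expression values here. Differences are BALB/cByJ minus BALB/cJ of log2(value + 1), a scale on which low values change less than their ratio. The known alleles matched the strain labels in all 7 libraries: Cyth1 was 0.10 to 0.19 in BALB/cByJ and 25.77 to 26.98 in BALB/cJ, and Zhx2 was 5.47 to 7.98 in BALB/cByJ and 0.25 to 0.51 in BALB/cJ. Summed over all genes, the values came to 570822 to 628977 per BALB/cByJ library and 543023 to 628958 per BALB/cJ library. The sex makeup of the pools moved with strain: the summed value of 4 Y-linked genes (Eif2s3y, Ddx3y, Uty and Kdm5d) was 128, 87.6 and 80.2 in BALB/cByJ, against 0.04, 14.8, 22.6 and 37.6 in BALB/cJ. The limma test across all 12715 genes called 210 genes (1.65%) at an adjusted p under 0.05, 98 higher (0.771%) and 112 lower (0.881%) in BALB/cByJ. Leaving out BALB/cByJ 1 gave 64 calls, leaving out BALB/cByJ 3 gave 76, and leaving out BALB/cJ 4 gave 82. The split was 108 higher and 49 lower after quantile normalization and 139 higher and 59 lower after TMM scaling. P-values measure only the spread between these pools, and the labels do not say how many litters they came from.

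For Ly6a, Ly6c1 and Ly6c2 every BALB/cByJ library was above every BALB/cJ library, for Them6 every BALB/cByJ library was below, and Ly6e and Gpihbp1 had higher means with libraries that overlapped between strains. The libraries of the strains did not overlap for 4 of the 6 genes, whereas 17% of all tested genes did not overlap. At an adjusted p under 0.05, 3 of the 6 were higher and 1 was lower, beside the 0.771% and 0.881% of all tested genes given above. Since this contrast chose the genes, nothing is read from these counts. The median difference of the 6 genes was 0.51, against -0.07 over all tested genes. In bulk tissue, fewer cells of a type and less RNA per cell cannot be told apart.

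**Figure D1:**
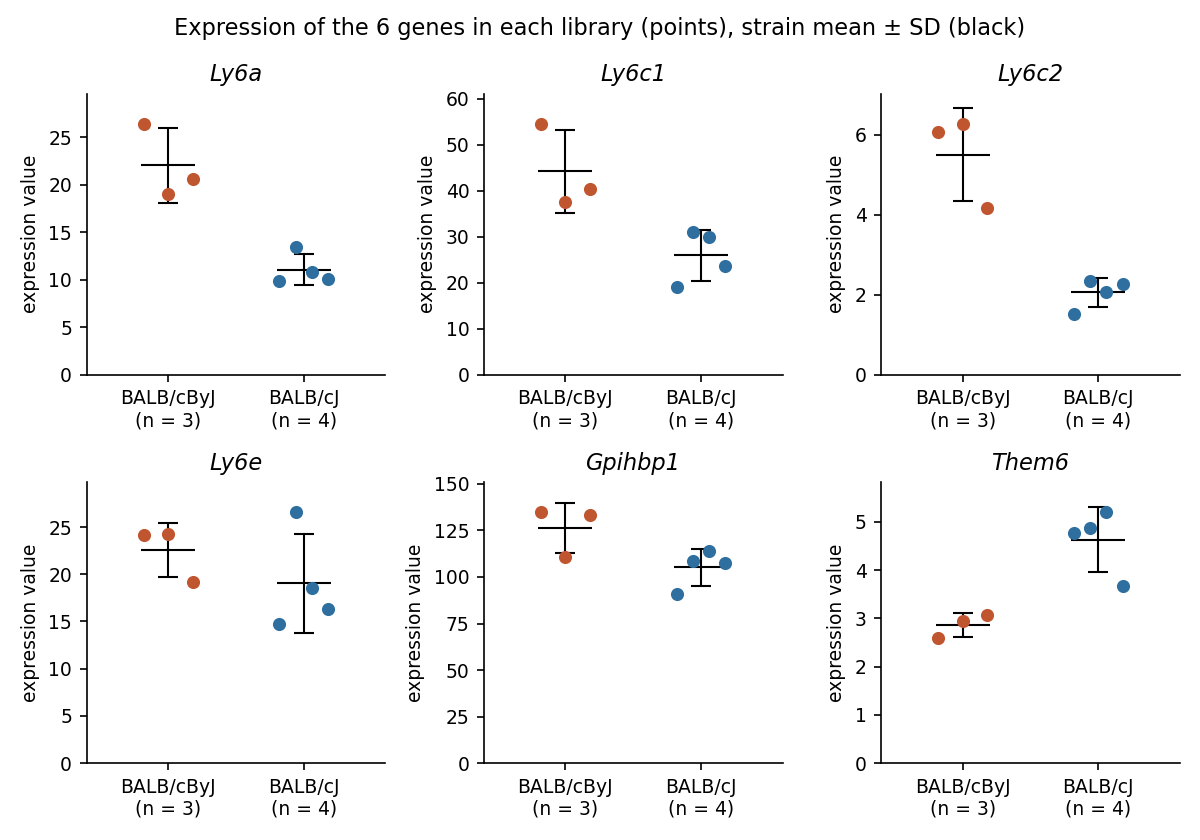
Expression values (vertical axis, each starting at 0) of the 6 genes in 3 BALB/cByJ and 4 BALB/cJ libraries, with 1 point per library and the strain mean ± SD in black. The strains are apart for Ly6a, Ly6c1, Ly6c2 and, in the other direction, Them6, and overlap for Ly6e and Gpihbp1.

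Ly6a, which encodes the surface protein widely used to mark blood stem cells in the mouse, had expression values of 26.42, 19.0 and 20.62 in BALB/cByJ libraries 1 to 3, against 9.91, 13.45, 10.82 and 10.09 in BALB/cJ libraries 1 to 4. The lowest BALB/cByJ library was above the highest BALB/cJ library. BALB/cByJ averaged 22.0 ± 3.90 (SD, n = 3), against 11.1 ± 1.64 (SD, n = 4) for BALB/cJ, a ratio of 1.99 and a log2 difference of 0.93 (standard error 0.13). Leaving out any 1 library gave log2 differences of 0.79 to 1.02.

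Ly6c1, whose product marks endothelium in many mouse tissues, had the highest level among Ly6a, Ly6c1, Ly6c2 and Ly6e. Its expression values were 54.61, 37.63 and 40.47 in BALB/cByJ, against 19.09, 30.98, 29.97 and 23.74 in BALB/cJ. The strains did not overlap, but BALB/cByJ 2 was closer to the 2 highest BALB/cJ libraries than to BALB/cByJ 1. BALB/cByJ averaged 44.2 ± 9.10 (SD, n = 3), against 25.9 ± 5.58 (SD, n = 4) for BALB/cJ, a ratio of 1.71 and a log2 difference of 0.75 (standard error 0.16). Adding the summed Y-linked level to the fit gave a log2 difference of 0.42.

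Ly6c2 encodes the form of LY6C that mouse monocytes carry. It was low in these ventricles, at 6.06, 6.28 and 4.18 in BALB/cByJ, against 1.53, 2.35, 2.08 and 2.27 in BALB/cJ. All BALB/cByJ libraries were above all BALB/cJ libraries, with the smallest gap between BALB/cByJ 3 and BALB/cJ 2. BALB/cByJ averaged 5.51 ± 1.15 (SD, n = 3), against 2.06 ± 0.37 (SD, n = 4) for BALB/cJ, a ratio of 2.68, the largest of the 6 genes. The log2 difference was 1.08 (standard error 0.15), and 1.37 with a pseudocount of 0.1 in place of 1, since the added 1 weighs more on low values.

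Ly6e, an interferon-inducible family member that in mouse placenta serves as the receptor for syncytin-A, had expression values of 24.16, 24.25 and 19.23 in BALB/cByJ, against 14.69, 26.58, 18.54 and 16.34 in BALB/cJ. The highest of all 7 libraries was BALB/cJ 2, so the strains overlapped. BALB/cByJ averaged 22.6 ± 2.87 (SD, n = 3), against 19.0 ± 5.27 (SD, n = 4) for BALB/cJ, and the log2 difference of 0.26 (standard error 0.16) was smaller than the spread of the BALB/cJ libraries.

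Gpihbp1 had the highest level of the 6 genes, at 134.82, 110.65 and 133.23 in BALB/cByJ, against 90.68, 108.41, 113.74 and 107.71 in BALB/cJ. BALB/cByJ 2 fell inside the BALB/cJ range. BALB/cByJ averaged 126 ± 13.5 (SD, n = 3), against 105 ± 10.01 (SD, n = 4) for BALB/cJ, a ratio of 1.201 and a log2 difference of 0.26 (standard error 0.11). Adding the summed Y-linked level to the fit gave a log2 difference of 0.08.

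Them6 encodes a member of the thioesterase superfamily and was the only one of the 6 genes with a lower mean in BALB/cByJ. Its expression values were 2.59, 2.94 and 3.07 in BALB/cByJ, against 4.77, 4.88, 5.20 and 3.66 in BALB/cJ. The strains did not overlap, and the nearest BALB/cJ library was BALB/cJ 4. BALB/cByJ averaged 2.87 ± 0.25 (SD, n = 3), against 4.63 ± 0.67 (SD, n = 4) for BALB/cJ, a ratio of 0.62 and a log2 difference of -0.54 (standard error 0.12).

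The order of the expression values differed between strains in 2 places. Them6 was below Ly6c2 in all 3 BALB/cByJ libraries and above it in all 4 BALB/cJ libraries. Ly6a was above Ly6e in 2 of 3 BALB/cByJ libraries and in 0 of 4 BALB/cJ libraries, and in BALB/cByJ the Ly6a and Ly6e means differed by less than the SD of either gene. Gpihbp1 was above Ly6c1, and Ly6c1 above the rest, in all 7 libraries.

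The summed expression value of Ly6a, Ly6c1, Ly6c2 and Ly6e was 94.3 ± 14.7 (SD, n = 3) in BALB/cByJ, against 58.1 ± 12.1 (SD, n = 4) for BALB/cJ, and the ranges (84.5 to 111 in BALB/cByJ and 45.2 to 73.4 in BALB/cJ) did not overlap. The makeup of the sum differed too. Ly6c2 took 5.87% ± 1.19 of it in BALB/cByJ and 3.58% ± 0.51 in BALB/cJ, and Ly6e took 24.1% ± 3.27 in BALB/cByJ and 32.5% ± 2.65 in BALB/cJ (SD, n = 3 and n = 4), both without overlap. The shares of Ly6c1 (46.7% in BALB/cByJ and 44.6% in BALB/cJ) and Ly6a (23.3% in BALB/cByJ and 19.3% in BALB/cJ) overlapped between strains. Ly6c1 was 8.23 ± 1.97 times Ly6c2 in BALB/cByJ and 12.6 ± 1.65 times Ly6c2 in BALB/cJ.

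**Figure D2:**
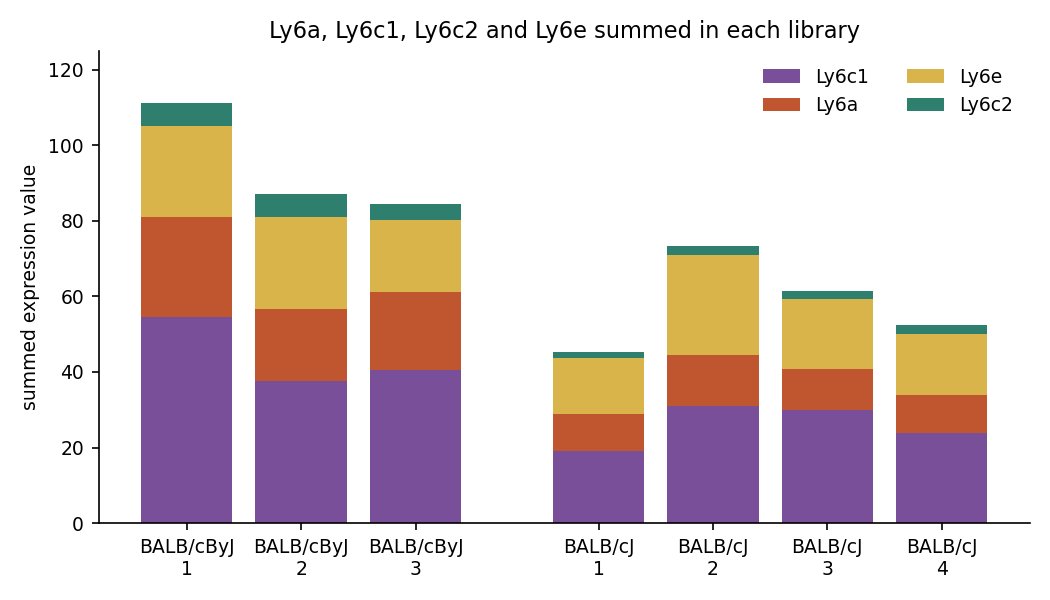
Stacked expression values (vertical axis) of Ly6c1, Ly6a, Ly6e and Ly6c2 in each library, BALB/cByJ on the left and BALB/cJ on the right. The sums are 84.5 to 111 in BALB/cByJ and 45.2 to 73.4 in BALB/cJ, and Ly6c2 is the thinnest band in every library.

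The copies share transcript sequence, and the sources used here do not say how reads that match more than 1 copy were assigned. In GENCODE M39 transcripts, 29.8% of the distinct stretches of 50 bases in Ly6c1 also occur in Ly6c2, and 33.1% of those in Ly6c2 also occur in Ly6c1. At 100 bases these shares were 16.9% for Ly6c1 and 18.7% for Ly6c2. Ly6a shared 7.26% of its 50-base stretches with Ly6c1 and 10.8% with the overlapping lncRNA Gm28068. The split between Ly6c1 and Ly6c2 is therefore uncertain. Them6 shared 13.4% with Slurp1, which was listed at 0 in all BALB/cByJ libraries and at 0.18 to 0.39 in BALB/cJ, Ly6e shared 7.61% with Gm62552, and Gpihbp1 shared 0% with other genes.

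Within strains, some libraries were high or low for several of the genes at once. BALB/cJ 1 was the lowest BALB/cJ library for 5 of the 6 genes, the exception being Them6, and it also had the lowest Y-linked sum. BALB/cByJ 1 was the highest BALB/cByJ library for Ly6a, Ly6c1 and Gpihbp1 and had the highest Y-linked sum, whereas BALB/cByJ 2 was the lowest for these genes. After subtracting each strain's mean, the deviations of log2 values over the 7 libraries correlated at 0.85 between Ly6a and Ly6c1, 0.80 between Ly6c1 and Gpihbp1, 0.71 between Ly6a and Ly6e and 0.71 between Ly6c2 and Ly6e. Ly6c1 and Ly6c2, which share sequence, correlated at 0.53, and Them6 at -0.35 to 0.19 with the others. These points share libraries, pools and scaling, and 7 points give only a rough description.

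By the same measure, the genes most like Ly6a among 8799 genes with a mean of at least 5 were Itm2c (0.99), Cthrc1 (0.98) and Snx21 (0.98). For Ly6c1 they were the metallothionein Mt2 (1.00), Vps72 (1.00) and Zbed3 (0.99), for Ly6c2 Desi1 (0.99), C2cd2l (0.99) and Tgfbrap1 (0.99), and for Ly6e Ctdnep1 (0.98), Slc35a2 (0.98) and Hexa (0.98). For Gpihbp1 they were Gngt2 (1.00), the mast cell carboxypeptidase gene Cpa3 (0.99) and Lage3 (0.99). For Them6 they were Acaa2 (0.98), a mitochondrial enzyme of fatty acid oxidation, Lmod2 (0.98) and Tcp11l2 (0.96). With 8799 genes compared over 7 libraries, the best 3 reached at least 0.96 for each of the 6 genes. Nothing is read from which genes these were. Of these 18 genes only Acaa2 was called between strains by limma (log2 difference 0.58, adjusted p = 0.0309). It was not called without BALB/cByJ 1, 2 or 3 or BALB/cJ 3 or 4, where its adjusted p was 0.0676 to 0.123. Them6 and Acaa2 deviated together within strains, and their strain differences had opposite signs.

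The next question was whether the strain difference extended along the chromosome. Between Them6 and Gpihbp1, RefSeq places 38 other genes, of which 11 are in the table and 2 passed the filter. Lynx1, a family member that modulates nicotinic acetylcholine receptors, had expression values of 46.97, 55.74 and 41.23 in BALB/cByJ, against 50.77, 56.73, 50.04 and 47.88 in BALB/cJ. The strains overlapped, with a log2 difference of -0.10 (adjusted p = 0.652 from limma). Ly6h, a brain-enriched member, was 0.49 to 0.70 in BALB/cByJ and 0.39 to 1.53 in BALB/cJ, with a log2 difference of -0.11 (adjusted p = 0.767 from limma). Ly6i and Ly6g, which were too low to test, were 0.70, 0.71 and 0.33 in BALB/cByJ against 0, 0.10, 0.10 and 0.33 in BALB/cJ for Ly6i, and 0.90, 0.58 and 0.31 in BALB/cByJ against 0.29, 0.10, 0.61 and 0.31 in BALB/cJ for Ly6g. LY6G marks neutrophils in the mouse. Cluster genes of skin and other epithelia, such as Ly6d, Lypd2 and Slurp2, were at 0 to 0.66 in every library.

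Within 1 Mb of the span, 41 other genes were tested and 0 were called by limma at an adjusted p under 0.05, while 8 had an unadjusted p under 0.05 (19.5% of the 41, against 18.3% of all tested genes). Their log2 differences ran from -0.42 to 0.36 with a median of -0.10. The nearest tested genes outside the span were Jrk, 11.9 kb away on the Them6 side (log2 difference -0.15, adjusted p = 0.524 from limma), and Zfp41, 17 kb away on the Gpihbp1 side (-0.09, adjusted p = 0.754 from limma). The smallest p-values belonged to Nrbp2 (log2 difference -0.42, adjusted p = 0.0633 from limma, and 0.0371 without BALB/cJ 2) and Plec, the gene of the cytolinker plectin (-0.42, adjusted p = 0.0699 from limma). Within 2 Mb, 66 genes were tested and 1 was called, Gpt, the alanine aminotransferase gene 1099 kb away (log2 difference 0.60, adjusted p = 0.0190 from limma). Gpt did not pass once BALB/cByJ 1 or 3 or BALB/cJ 3 or 4 was left out, with adjusted p-values of 0.0555 to 0.0826 from limma.

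**Figure D3:**
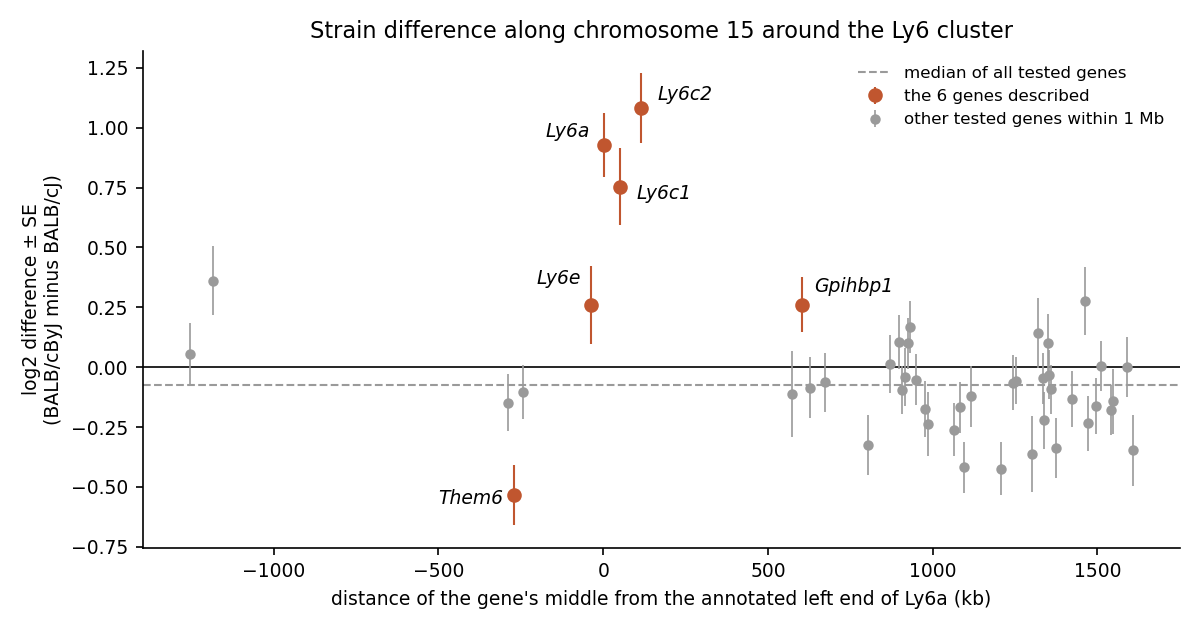
Log2 difference between strains (vertical axis, ± standard error of the limma fit) against the distance in kb from Ly6a (horizontal axis) for the 6 genes (orange) and the 41 other tested genes within 1 Mb of the span (gray). The dashed line is the median of all tested genes, -0.07, and Ly6a, Ly6c1 and Ly6c2 stand above the gray points, which run from -0.42 to 0.36.

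Of 4 tested family members encoded elsewhere in the genome, 0 were called and 2 had an unadjusted p under 0.05 in limma. Cd59a, the complement inhibitor, averaged 33.8 ± 2.52 in BALB/cByJ and 33.9 ± 3.22 in BALB/cJ. Plaur, the urokinase receptor, had expression values of 5.75, 3.84 and 4.72 in BALB/cByJ, against 3.44, 3.15, 3.17 and 2.83 in BALB/cJ, with a log2 difference of 0.47 (adjusted p = 0.0845 from limma). Of 31 tested genes of GPI anchor synthesis, attachment and remodelling, on which most Ly6 proteins depend, 0 were called, and 6 had an unadjusted p under 0.05, all of them lower in BALB/cByJ, with a median difference of -0.10 (-0.07 over all tested genes). The most abundant were Pigp (98.0 ± 12.8 in BALB/cByJ and 82.6 ± 15.1 in BALB/cJ, adjusted p = 0.354 from limma) and Pigq (31.9 ± 1.51 in BALB/cByJ and 39.7 ± 1.23 in BALB/cJ, adjusted p = 0.108 from limma).

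Of 21 tested genes of the lipoprotein lipase pathway in which GPIHBP1 acts, 1 was higher, 1 was lower and 19 did not pass, with a median difference of 0.04. Lpl, the enzyme itself, averaged 277 ± 14.5 in BALB/cByJ and 253 ± 9.51 in BALB/cJ (log2 difference 0.13, adjusted p = 0.530 from limma). Angptl4, a secreted inhibitor of the lipase, had expression values of 62.51, 51.43 and 68.8 in BALB/cByJ, against 39.88, 43.94, 32.86 and 28.12 in BALB/cJ. It was higher in every BALB/cByJ library, with a log2 difference of 0.74 (adjusted p = 0.0196 from limma), and was not called without BALB/cByJ 1 or 3 or BALB/cJ 4 (adjusted p = 0.0577 to 0.115). Cd36, the fatty acid transporter, averaged 579 ± 121 in BALB/cByJ and 416 ± 51.7 in BALB/cJ, which did not pass (adjusted p = 0.121 from limma).

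Several Ly6 genes are interferon-inducible, so a list of other interferon-stimulated genes was set beside them. Of 27 tested, 6 were higher, 0 were lower and 21 did not pass in limma, and 13 had an unadjusted p under 0.05, all of them higher in BALB/cByJ. The median difference was 0.31, and 25 of the 27 were above 0. The summed value of the list was 178.5 to 221.75 in BALB/cByJ and 127.54 to 153.5 in BALB/cJ, without overlap. Ifi27l2a had expression values of 32.55, 29.1 and 25.74 in BALB/cByJ, against 4.38, 11.85, 12.85 and 10.62 in BALB/cJ, with a log2 difference of 1.55 (adjusted p = 0.00478 from limma) that stayed called without any 1 library (at most 0.0348) but not with the Y-linked covariate (0.0892). Isg15, a ubiquitin-like modifier, was 7.64, 8.83 and 6.02 in BALB/cByJ, against 4.82, 3.61, 3.36 and 3.28 in BALB/cJ (log2 difference 0.83, adjusted p = 0.00955 from limma, and 0.0505 without BALB/cByJ 1). Bst2, which tethers budding virus to the cell surface, was 28.02, 33.06 and 30.42 in BALB/cByJ, against 19.72, 20.11, 18.68 and 14.0 in BALB/cJ (log2 difference 0.73, adjusted p = 0.00955 from limma, and 0.0559 without BALB/cByJ 3). Oasl2 had a log2 difference of 0.71 (adjusted p = 0.0421 from limma) and lost its call without BALB/cByJ 2 or 3 or BALB/cJ 1, 3 or 4 (0.0580 to 0.113). The other called genes were Usp18 (adjusted p = 0.0423 from limma) and Irf7 (adjusted p = 0.0497 from limma). Usp18 lost its call without BALB/cByJ 2 or 3 or BALB/cJ 2, 3 or 4 (0.0733 to 0.185), and Irf7 lost its call without BALB/cByJ 2 or 3 or BALB/cJ 1, 2 or 4 (0.0651 to 0.133).

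Among the BALB/cByJ libraries, the mean deviation of the interferon list was highest in BALB/cByJ 2 (0.41), where Ly6c2 and Ly6e were also highest, and lowest in BALB/cByJ 1 (0.01), where Ly6a, Ly6c1 and Gpihbp1 were highest. Among the BALB/cJ libraries it was highest in BALB/cJ 2 (-0.02) and lowest in BALB/cJ 1 (-0.25), as were Ly6a, Ly6c1, Ly6c2 and Ly6e. Within strains, Ifi27l2a followed Ly6c1 at a correlation of 0.81, Gpihbp1 at 0.72 and Ly6c2 at 0.71. It correlated at 0.64 with Ly6e, 0.46 with Ly6a and -0.08 with Them6. Among the 8799 genes compared, Ifi27l2a ranked 435 for likeness to Ly6c1 and 1952 for Ly6a. Irf7, another called gene of the list, correlated at -0.54 with Gpihbp1, -0.48 with Ly6a and -0.29 with Ly6c1. Its correlations were 0.13 with Ly6c2, 0.15 with Ly6e and 0.61 with Them6. The part of interferon signaling in the Ly6 differences was not tested. Leaving out BALB/cByJ 2 or BALB/cJ 4 left 3 called interferon genes, leaving out BALB/cByJ 3 left 2, and the Y-linked covariate left 2.

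Vascular endothelial markers, the broad markers of the cells that carry LY6A, LY6C1 and GPIHBP1 in the heart, gave no call. Of 20 tested, 0 were called and 1 had an unadjusted p under 0.05 in limma, the median difference was -0.02, and the summed value was 716 to 782 in BALB/cByJ and 688 to 765 in BALB/cJ. Pecam1, an adhesion molecule of endothelial junctions, averaged 82.2 ± 4.21 in BALB/cByJ and 79.9 ± 6.07 in BALB/cJ (log2 difference 0.04, adjusted p = 0.854 from limma). Cdh5, the endothelial cadherin, averaged 91.2 ± 6.63 in BALB/cByJ and 94.6 ± 15.1 in BALB/cJ (log2 difference -0.04, adjusted p = 0.887 from limma). Per unit of Pecam1, Ly6a was 0.27 ± 0.05 in BALB/cByJ and 0.14 ± 0.02 in BALB/cJ and Ly6c1 was 0.54 ± 0.12 in BALB/cByJ and 0.33 ± 0.07 in BALB/cJ, both without overlap. Gpihbp1 per unit of Pecam1 was 1.54 ± 0.23 in BALB/cByJ and 1.33 ± 0.20 in BALB/cJ, with overlap.

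Capillary endothelial markers gave 1 higher gene of 12 tested, with 0 lower, and a median difference of 0.16. In limma, 6 had an unadjusted p under 0.05, of which 4 were higher and 2 lower in BALB/cByJ. The lower genes were Kit (log2 difference -0.31, adjusted p = 0.171 from limma) and Aplnr (-0.30, adjusted p = 0.208 from limma). The called gene was Car4, a GPI-anchored carbonic anhydrase of capillary endothelium, with expression values of 41.82, 31.27 and 29.96 in BALB/cByJ, against 17.13, 25.63, 22.93 and 20.5 in BALB/cJ. The strains did not overlap, and the log2 difference was 0.65 (adjusted p = 0.0346 from limma). The call depended on BALB/cByJ 1, 2 and 3 and BALB/cJ 1 and 4, since leaving out any of them gave an adjusted p of 0.0532 to 0.175 in limma. Within strains Car4 followed Ly6c1 at a correlation of 0.96 and Ly6a at 0.89, a comparison chosen after its values were seen. Among the 8799 genes compared, Car4 ranked 25 for Ly6c1 and 71 for Ly6a. The summed value of the capillary markers was 1820 to 2633 in BALB/cByJ and 1552 to 2258 in BALB/cJ, lowest in BALB/cJ 1 and highest in BALB/cByJ 1. Of 14 endocardial, arterial and lymphatic markers, 0 were called and 3 had an unadjusted p under 0.05 in limma, 1 higher and 2 lower in BALB/cByJ.

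**Figure D4:**
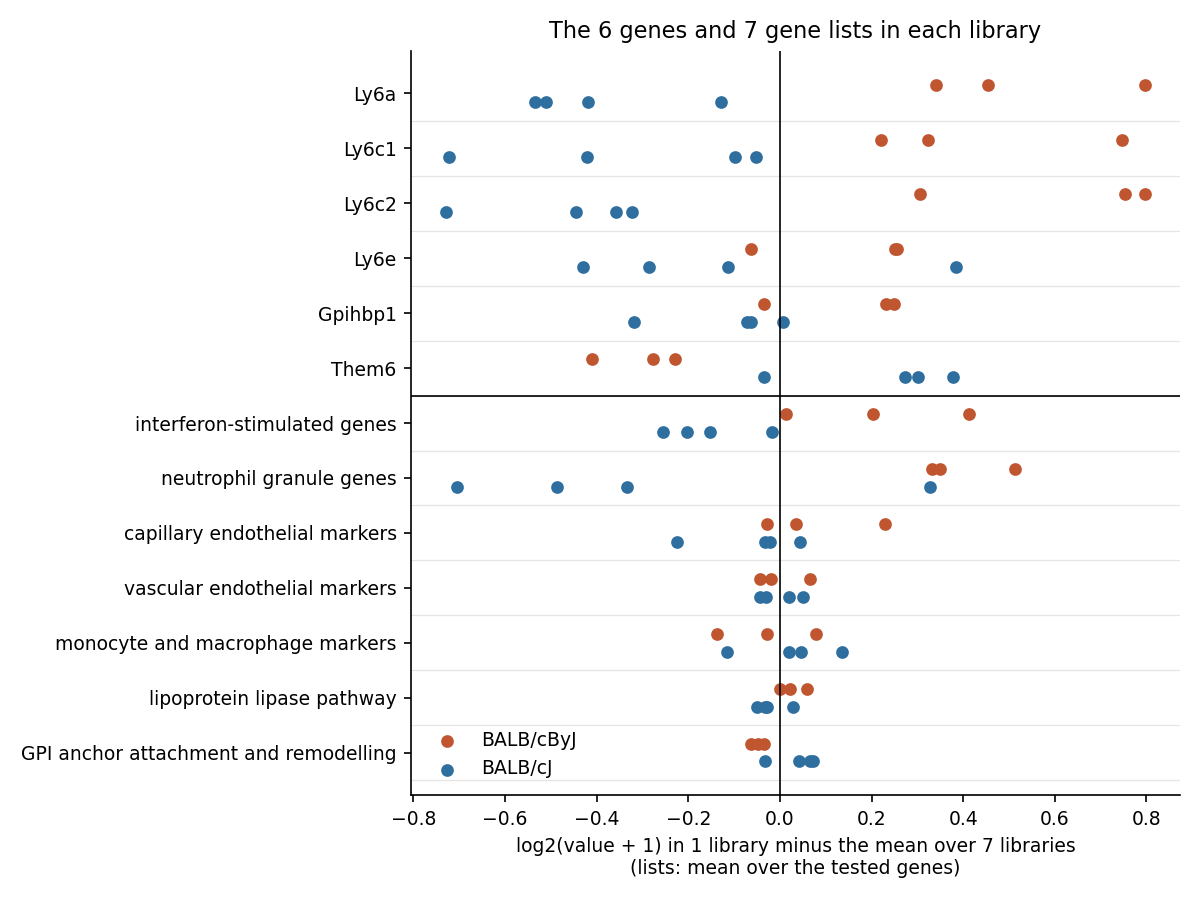
Deviation of each library from the mean over 7 libraries in log2(value + 1) (horizontal axis) for the 6 genes and, as means over their tested genes, for 7 lists, with BALB/cByJ above BALB/cJ in each row. Ly6a, Ly6c1 and Ly6c2 separate the strains, as do the interferon-stimulated list and, narrowly, the neutrophil list. In the other direction Them6 and, narrowly, the GPI anchor list separate them. The vascular endothelial, capillary endothelial, monocyte and macrophage and lipoprotein lipase lists overlap.

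Blood cells carry Ly6 proteins too, so their markers were read in the same fit. Of 13 monocyte and macrophage markers, 0 were called (1 without BALB/cByJ 2) and 4 had an unadjusted p under 0.05 in limma. Of these 4, 3 were lower in BALB/cByJ. They were Csf1r (log2 difference -0.55, adjusted p = 0.0668 from limma), Cx3cr1 (-0.49, adjusted p = 0.0914 from limma) and Adgre1 (-0.28, adjusted p = 0.245 from limma). The higher gene was Cd14 (0.42, adjusted p = 0.226 from limma). The summed value of the list was 69.3 to 83.1 in BALB/cByJ and 61.7 to 86.1 in BALB/cJ. The most abundant, the lysozyme gene Lyz2, averaged 32.2 ± 3.60 in BALB/cByJ and 28.6 ± 6.31 in BALB/cJ. Of 7 neutrophil granule genes, 1 was higher, 6 had an unadjusted p under 0.05 in limma, all of them higher in BALB/cByJ, and all 7 were above 0, with a median difference of 0.74. Their summed value was 89.3 to 105 in BALB/cByJ and 35.6, 40.4, 94.0 and 57.2 in BALB/cJ, so BALB/cJ 3 lay in the BALB/cByJ range. The called gene was Retnlg, at 2.20, 2.20 and 2.21 in BALB/cByJ against 0.91, 0.48, 1.45 and 0.85 in BALB/cJ (log2 difference 0.76, adjusted p = 0.0212 from limma), which was not called without BALB/cByJ 1, 2 or 3 or BALB/cJ 4. Without BALB/cJ 3, 6 of the 7 were called. Ly6c2, which blood cells carry, was 2.08 in BALB/cJ 3, inside the range of the other BALB/cJ libraries. Ly6g, too low to test, was 0.61 in BALB/cJ 3, against 0.10 to 0.31 in the other BALB/cJ libraries. The part of neutrophils in the Ly6 differences was not tested. Of 7 lymphocyte and thymus markers 0 were called, 6 had an unadjusted p under 0.05 in limma, and all 7 were lower in mean in BALB/cByJ. The summed value of the list was 2.37 to 3.78 in BALB/cByJ and 5.12, 5.55, 22.05 and 9.74 in BALB/cJ, so BALB/cJ 3 stood far above the rest.

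The remaining lists describe the rest of the tissue. Mural and smooth muscle markers gave 2 lower genes of 10, Cnn1 (5.34 ± 1.76 in BALB/cByJ and 13.0 ± 1.98 in BALB/cJ, adjusted p = 0.00226 from limma) and Acta2 (326 ± 17.3 in BALB/cByJ and 650 ± 167 in BALB/cJ, adjusted p = 0.00909 from limma, and 0.0722 without BALB/cByJ 3). None of the 12 fibroblast, 12 cardiomyocyte or 5 erythroid genes tested was called by limma, and 4, 2 and 3 of them had an unadjusted p under 0.05. All 4 Y-linked genes were called higher. For comparison with Them6, 11 thioesterase genes of the THEM and ACOT families were tested and 0 were called, with 2 at an unadjusted p under 0.05 and a median difference of 0.07. The most abundant, Acot13, averaged 443 ± 79.9 in BALB/cByJ and 406 ± 52.0 in BALB/cJ.

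Since the Y-linked sum was higher in every BALB/cByJ library than in any BALB/cJ library, sex makeup and strain overlap in this design. With the Y-linked level as a covariate, the differences kept their directions and were 0.83 for Ly6a, 0.84 for Ly6c2, 0.42 for Ly6c1, 0.05 for Ly6e, 0.08 for Gpihbp1 and -0.44 for Them6. Whether sex contributed to the differences beyond this fit was not tested.

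**Figure D5:**
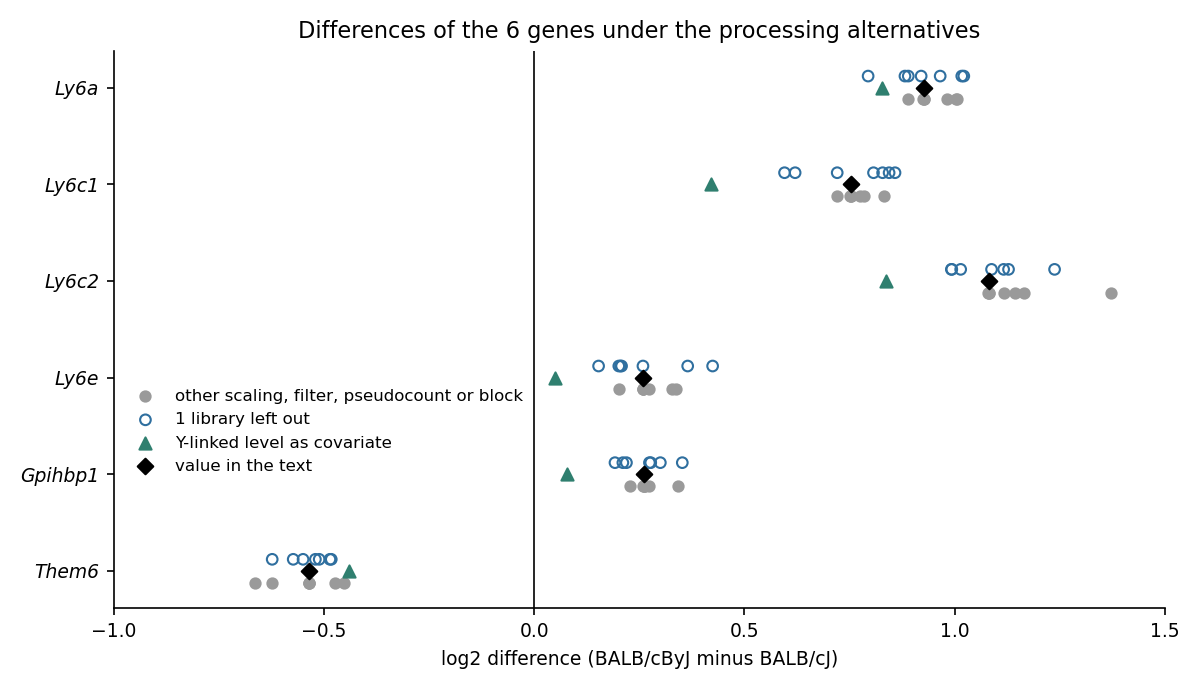
Log2 difference between strains (horizontal axis) of each of the 6 genes as given in the text (diamond), with 1 library left out (open circles), with the Y-linked level as a covariate (triangle) and under the other scalings, filters, pseudocount and block (gray). No point crosses 0, and the triangles lie nearest to 0 for Ly6c1, Ly6c2, Ly6e, Gpihbp1 and Them6.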

How the data were processed

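RNA was extracted from pools of P4 ventricles in Trizol and purified on RNeasy columns, and libraries were made and sequenced by BGI Genomics. The authors deposited 1 table of a normalized expression signal for 17404 genes in 7 libraries (depth-normalized and, from the form of the values, per gene length), rounded to 2 decimals. The submitters' processing notes name the build mm10. The aligner, the quantification, the unit name and the read numbers are not among the sources used here, so intervals for counting error were not possible and the spread between pools is the only error. The table holds no counts.

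Genes with a mean of at least 0.5 over the 7 libraries (12715) entered a linear model of log2(value + 1) on strain alone, with limma 3.58.1 under R 4.3.3, with a variance trend and Benjamini-Hochberg adjustment over all of them. Tables, sequence searches and figures used Python 3.11.15, numpy 2.4.6, pandas 2.3.3, biopython 1.88 and matplotlib 3.10.9. The members and the 17 lists were chosen with earlier results of these data known. Genes named beside the 6 were the called genes of each list (up to 4 with the smallest p), otherwise up to 2 with the highest level, neighbors within 1 Mb that were called or nearest, and the 3 genes most like each member. Cyth1, Zhx2, Lpl, Cd36, Usp18, Irf7, Nrbp2, Plec, Gpt, Ly6i, Ly6g, Kit, Aplnr, Csf1r, Cx3cr1, Adgre1, Cd14 and the epithelial cluster genes were named outside this rule. So were the likeness values of Car4, Ifi27l2a and Irf7. Some of these were named after their values were seen. A gene that the rule would name is not reported here. Alternatives were a pseudocount of 0.1, no filter or a mean of at least 2, quantile and TMM scaling, the replicate number as a block, the Y-linked level as a covariate, centring on endothelial markers, other distances, and leaving out each library.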

Additional observations from a re-analysis of the deposited data

Results flagged for a closer look

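Among 29 sets of 4 BALB/cJ values examined, for the 6 genes and the other genes whose sensitivity was followed, 2 had a library set far apart from the other 3, and chance alone gives about 1 in 20 such sets. Ly6h, the low family member next to Gpihbp1, was 1.53 in BALB/cJ 3, against 0.39 to 0.56 in the other BALB/cJ libraries and 0.49 to 0.70 in BALB/cByJ. Acaa2, the gene most like Them6 within strains, was 413.5 in BALB/cJ 4, against 501.57 to 517.75 in the other BALB/cJ libraries, and 681.86 to 749.55 in BALB/cByJ. BALB/cJ 4 was also the lowest BALB/cJ library for Them6, at 3.66. None of the 6 genes of the cluster had a library apart by this measure.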

How the results depend on the processing

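The directions of all 6 genes held under all 15 alternatives, though not all of these were separate checks. A change of filter leaves a gene's own difference as it was, and the replicate block gave the same 6 differences as leaving out BALB/cJ 4. The median of the 6 moved beyond the spread within strains only with the Y-linked level as a covariate (0.25, against 0.51 in the text). Leaving out 1 library gave medians of 0.40 to 0.63. Calls over all genes fell to 39 with no filter on low values and to 46 with the Y-linked covariate, and ran from 64 to 186 when 1 library was left out. Neighbors called within 1 Mb numbered 0 to 1 with a library left out, and 1 within 2 Mb. Of all listed genes, 16 were called, against 10 with a pseudocount of 0.1, 0 with no filter, 3 with the Y-linked covariate and 3 to 19 with a library left out. The 16 include the 4 Y-linked genes, whose own sum is that covariate, so the loss of their calls with it was fixed in advance. Interferon-stimulated calls were 0 with no filter, 2 with the Y-linked covariate and 2 to 7 with a library left out. Lipoprotein lipase pathway calls were 0 with no filter, 1 with quantile normalization, 1 with TMM scaling, 1 with the Y-linked covariate, 1 when centred on vascular endothelial markers, and 0 to 2 with a library left out. The causes of these shifts were not tested.

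Libraries with the same number did not deviate together (correlations of -0.19, -0.26 and -0.05), and libraries with different numbers correlated at -0.18 to 0.39. The numbers were not treated as pairs, although so few libraries cannot exclude a shared litter or batch. With the number as a replicate block, 58 genes were called in all, 7 of the listed genes, 2 interferon-stimulated genes and 0 lipoprotein lipase pathway genes, and the median of the 6 genes was 0.50. BALB/cJ 4 has no BALB/cByJ library of its number, so this block sets it aside and leaves less to estimate the spread from. The lower counts are therefore not read as a batch effect. Read depth is unknown, so low values such as those of Ly6c2 and Them6 are given without a counting error.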
